A study of Homo sapiens with 4 samples.

Results

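Syntaxins are membrane-anchored SNARE proteins, the coiled-coil proteins whose bundles pull a transport vesicle and its target membrane together until they fuse. Each syntaxin works mainly at 1 set of membranes: STX2, STX3 and STX4 at the plasma membrane, STX5 and STX18 between the endoplasmic reticulum and the Golgi, STX6 and STX16 at the trans-Golgi network, and STX7, STX8 and STX12 on endosomes. STX16 is the syntaxin that receives carriers returning from endosomes to the trans-Golgi network. Several of these genes are spliced into more than 1 protein form, and the exons concerned often lie near the start of the protein or near its membrane anchor.

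The 10 genes described here, STX2, STX3, STX4, STX5, STX6, STX7, STX8, STX12, STX16 and STX18, were taken by symbol. The unit is the skipped exon event: an upstream exon, a middle exon that is included or skipped, and a downstream exon, counted on the reads that cross their junctions. The rows of these genes were used where the 4 libraries averaged 20 or more junction reads, which kept 47 events of 35 exons in 9 genes, out of 54503 such events in the whole table. STX6 has no row in the table. The family was chosen because a 12-nt exon of STX16 differed between the 2 sets of libraries. The values of that exon, with the authors' deposited FDR, are therefore given as a description, and nothing is supported with them. The tested event of the family with the fewest reads had a mean of 48.5, and the 1 event left out, a STX16 event, had a mean of 10.0.

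The cells were 293T, an established human embryonic kidney line. According to the labels, 2 samples received a gapmer antisense oligonucleotide (ASO) against Snord89, a small nucleolar RNA, by lipid transfection at 70 nM, with new medium at 24 h and RNA taken at 48 h. The other 2 samples are labelled as having no treatment; their labels carry the same transfection text, so whether they received the lipid is not clear, and no control ASO is named. All 4 were sequenced from poly(A) RNA as read pairs of 150 bases. The labels call the samples biological replicates without naming separate cultures, so no p-value here speaks for more than these samples.

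The deposited comparison table places the libraries in 2 sets of 2, and no header or label says which set received the ASO. The name of the comparison puts Snord89 before no ASO, an order that may mean the treated samples are the first set. It does not state this. Differences are therefore given as the first set minus the second, and the libraries of a set are called library 1 and library 2, numbers that pair nothing. Summed over all events there were 38613055 and 39012939 junction reads in the first set against 42868431 and 43929373 in the second, with reads of overlapping events counted more than once. Library 2 of the second set stood apart: 129 tested events had no reads in it, against 19 in library 1 of that set and 0 in both libraries of the first. Among events with a mean inclusion level between 0.05 and 0.95, the libraries differed by over 0.2 in 22.3% within the second set and in 7.85% within the first. The table has no row for SNORD89, so the knockdown could not be checked from it. The syntaxin events of intermediate level were closer within the second set, with a largest gap of 0.107, and results that rest on library 2 of that set are given with and without it.

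The 12-nt exon of STX16 lies at chr20:57234679-57234690 of hg19, on the plus strand. The exon before it has 2 ends in the table, at positions 57227143 and 57227194, which are 51 nt apart, and the exon after it starts at 57242546. These choices make 4 paths through the transcript, all 4 of which occur in protein-coding transcripts of GENCODE release 29 (GRCh38). They are shown because the values of STX16 turn on which path a read took. Each runs from the last 30 bases of the upstream exon at its shorter end to the first 30 bases of the downstream exon, 5′ to 3′, with the 12-nt exon in capitals:
STX16 shorter end, exon included (STX16-202): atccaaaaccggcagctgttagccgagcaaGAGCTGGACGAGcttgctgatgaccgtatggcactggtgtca
STX16 shorter end, exon skipped (STX16-206): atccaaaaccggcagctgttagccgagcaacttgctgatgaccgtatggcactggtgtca
STX16 longer end, exon included (STX16-207): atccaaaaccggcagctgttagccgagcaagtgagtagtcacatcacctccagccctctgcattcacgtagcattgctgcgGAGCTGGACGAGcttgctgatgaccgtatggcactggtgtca
STX16 longer end, exon skipped (STX16-203): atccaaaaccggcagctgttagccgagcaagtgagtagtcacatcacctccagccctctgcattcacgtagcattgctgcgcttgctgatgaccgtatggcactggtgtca

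The added 51 nt open with gtgagt, the letters with which many introns begin, so that the shorter end is a splice site inside the longer exon. Both the 51 nt and the 12 nt are multiples of 3, and neither shifts the reading frame. The 12-nt exon itself has a GC content of 66.7%.

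On the longer upstream end, the 12-nt exon was included less in the first set. The inclusion level is the share of an event's own junction reads that include the exon, corrected for the length of each form. It was 0.590 and 0.488 in the first set against 0.937 and 0.943 in the second. The sets did not overlap, and the difference of -0.401 carries an FDR of 1.40e-08 in the deposited table of the authors. The exon was skipped by 38 and 32 reads in the first set against 3 and 3 in the second. Inclusion reads numbered 59 and 33 against 48 and 54. These are counts not corrected for depth, and STX16 had more reads in the first set. As shares of the reads of all STX16 paths, given below, the included and the skipped form both differed. The 95% counting intervals of the levels ran from 0.489 to 0.683 and from 0.371 to 0.607 in the first set, and from 0.830 to 0.978 and from 0.847 to 0.981 in the second. Without library 2 of the second set the difference was -0.398. This event is the one the family was selected on.

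On the shorter upstream end, the same 12 nt did not show that difference. Inclusion levels were 0.416 and 0.327 in the first set against 0.250 and 0.347 in the second, and the sets overlapped. The difference was 0.073, and the authors' deposited table lists an FDR of 0.642. This event had more reads, a mean of 182.0 per library against 67.5 on the longer end. With the reads of both ends summed, a comparison added after the values were seen, the exon's level was 0.464 and 0.363 in the first set against 0.451 and 0.517 in the second, a difference of -0.0705 with overlapping sets. The third event of the exon, with a downstream exon starting at 57242257, is the one below the read minimum; its difference was -0.193, from levels of 0.698 and 0.764 against 0.847 and 1.00.

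Set out as shares of the 350 and 286 path reads of the first set and the 168 and 194 of the second, the 4 paths moved differently. The path with the longer end and no 12-nt exon made up 10.9% and 11.2% in the first set against 1.79% and 1.55% in the second. The path with the longer end and the 12-nt exon took 16.9% and 11.5% against 28.6% and 27.8%. Both of these were clear of overlap between sets, in opposite directions. The path with the shorter end and the exon took 31.4% and 26.6% against 18.5% and 25.8%, a narrow separation within the counting intervals of the libraries. The path with the shorter end and no exon, the most used in all 4 libraries, took 40.9% and 50.7% against 51.2% and 44.8%, with overlapping sets. The longer end as a whole held 27.7% and 22.7% in the first set against 30.4% and 29.4% in the second, so its use differed far less than the make-up of the transcripts that used it. Of all reads that skipped the exon, 21.0% and 18.1% came from the longer end in the first set against 3.37% and 3.33% in the second. An inclusion read that covers only the junction to the next exon may be counted on both ends. The inclusion reads of the 2 events exceeded the reads that join the 12-nt exon to that next exon by 8 to 17 per library. This excess may also hold reads that enter the 12-nt exon without reaching that next exon. It therefore does not measure how many reads were counted on both ends.

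**Figure D1:**
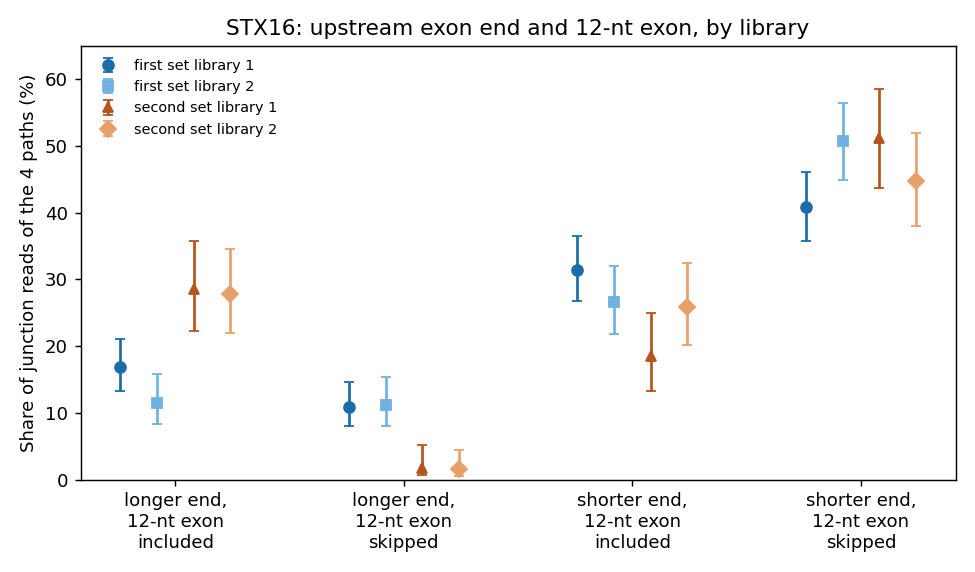
Share of STX16 path reads (%, y axis) for each combination of upstream exon end and 12-nt exon (x axis), 1 point per library with its 95% Wilson interval, which covers counting error only. The path with the longer end and no 12-nt exon stands at 10.9% and 11.2% in the first set against 1.79% and 1.55% in the second, while the other long-end path moves the other way.

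The rest of STX16 was close between the sets. STX16 held most of the family's events of intermediate level. They were 7 of its 12 tested events, against 2 of the 35 events of the other genes and 24.6% of all tested events. The 7 events are fewer exons, as a 12-nt, a 118-nt and a 163-nt exon with its shorter form each gave more than 1. The 163-nt exon at chr20:57244347-57244509 had the most reads among these, a mean of 384.8, and a 152-nt form of it starts 11 nt further on. It is shown with those 11 bases in capitals, because both forms are spliced in and the 152-nt form begins directly after them:
STX16 163-nt exon (STX16-201): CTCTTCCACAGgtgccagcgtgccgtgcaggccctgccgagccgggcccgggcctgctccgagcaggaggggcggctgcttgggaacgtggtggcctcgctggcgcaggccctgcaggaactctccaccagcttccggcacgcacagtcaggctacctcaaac

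The 163 nt are not a multiple of 3. In GENCODE release 29, 8 of the 9 transcripts that include the exon between these neighbours are protein coding, and 5 of the 7 that skip it are marked for nonsense-mediated decay, the pathway that destroys messages with an early stop codon. Its inclusion level was 0.519 and 0.440 in the first set against 0.484 and 0.501 in the second, a difference of -0.013 with overlapping sets, and the authors' deposited table lists an FDR of 1.00. The 152-nt form, which shares the skipping reads, had levels of 0.289 and 0.255 against 0.317 and 0.250, which also overlapped. Junctions that skip the exon were thus abundant in all 4 libraries, with 170, 190, 82 and 92 reads.

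An exon of 118 nt at chr20:57242257-57242374, between the 12-nt exon and the next, was rarely included. Its only matched transcript, STX16-215, is marked for nonsense-mediated decay. After the shorter upstream end its level was 0.0724 and 0.0441 in the first set against 0.0887 and 0.109 in the second, and after the 12-nt exon it was 0.0716 and 0.0947 against 0.136 and 0.113. Both events differed by -0.041 and their sets did not overlap, with FDR values of 0.320 and 0.453 in the authors' deposited table. The first of them shares its skipping reads with the shorter-end event of the 12-nt exon. The skipping reads of the second are the reads that join the 12-nt exon to the next exon. A read from the 118-nt exon to that next exon may count in both events, so the events are not separate results. The read-through gene STX16-NPEPL1, which overlaps STX16, has 3 rows of its own in the table, so reads in this region may be divided between the symbols.

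Across the family, 1 of 47 tested events was called, where a call means an FDR under 0.05 in the authors' deposited table and an absolute difference of at least 0.1. It was the STX16 event chosen above, lower in the first set, and with only the deepest event of each exon the count was 0; over all tested events the share called was 2.71%, with 1.37% lower and 1.34% higher in the first set. An FDR under 0.05 at any size of difference was reached by 2 events, against 5.72% of all tested events. Sets that did not overlap were found in 8 events, or 17.0%, against 22.9% of all tested events. All 8 were lower in the first set, as were 59.2% of all events whose sets did not overlap. They were 3 events of STX16, 2 of STX12 and 1 each of STX2, STX4 and STX7. Those of STX16 include both events of its 118-nt exon, which may share reads. The 8 include the event on which the family was chosen. Outside STX16, 5 of 35 events, or 14.3%, had sets that did not overlap. Over the family 32 events, or 68.1%, were lower in the first set, 14 higher and 1 equal. Outside STX16, 22 of 35 events, or 62.9%, were lower and 13 higher. Over all tested events 53.7% were lower and 41.3% higher. The median difference was -0.006, against -0.002 over all tested events. Absolute differences under 0.05 made up 93.6% of the family's events and 82.5% of all. Mean levels of 0.95 or more made up 76.6% of the family's events and 66.1% of all. Among events of intermediate level the share called was 11.1% in the family, the 1 STX16 event of 9, against 11.0% of all.

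A quasi-binomial model weighed every event against 1 common dispersion of 3.729, estimated from the spread between libraries of a set over events of intermediate level. An event's own spread between libraries therefore did not enter its p-value. The model gave 0 of 47 events an adjusted p under 0.05, and limma on log2 ratios also gave 0. Both tools had little power: in a check with known changes of inclusion level, limma found none of them, and the quasi-binomial model missed most where libraries scattered about as much as here. A count of 0 from these tools therefore does not show that the events did not differ. In the whole table the quasi-binomial model made 1 call, a share of 0.00183%. Among the 35 events outside STX16, 0 passed the authors' call, and the smallest adjusted p was 0.863 in the quasi-binomial fit and 0.955 in limma's. At an unadjusted p under 0.05 there were 1 and 2 of these 35 events by these tools, and 3 by the authors' p-value. These are 2.86%, 5.71% and 8.57% of the 35, against 3.23%, 4.87% and 14.3% of all tested events.

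**Figure D2:**
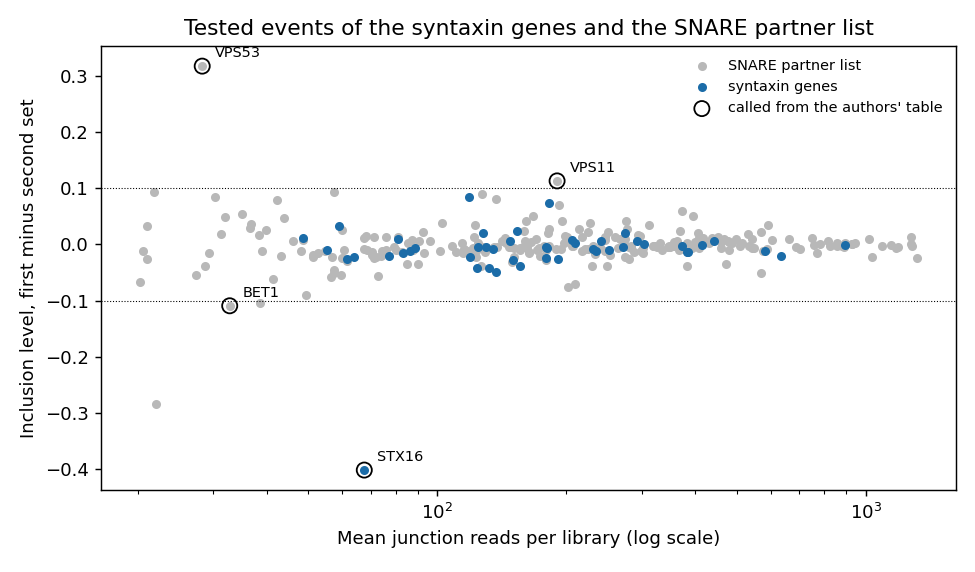
Difference in inclusion level (first minus second set, y axis) against mean junction reads per library (log scale, x axis) for the 47 syntaxin events and the 263 events of the SNARE partner list; rings mark events called from the authors' table and dotted lines a difference of 0.1 either way. The syntaxin events lie between the dotted lines except for the STX16 event at -0.401.

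Of the plasma membrane syntaxins, STX2 had the family's largest difference in favour of the first set. The 126-nt exon at chr12:131280540-131280665 holds the end of the coding region of STX2-203, while STX2-201 skips it, so its use decides which tail closes the protein. Its coding part is printed because the tail of a syntaxin carries the membrane anchor:
STX2 126-nt exon, coding part: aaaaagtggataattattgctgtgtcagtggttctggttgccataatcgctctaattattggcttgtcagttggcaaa

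Inclusion levels were 0.569 and 0.785 in the first set against 0.628 and 0.558 in the second. The difference of 0.084 rested on library 2 of the first set: without it the difference was -0.0237, and without library 1 of that set it was 0.192. The sets overlapped, and the FDR was 1.00 in the authors' deposited table. A 74-nt exon of STX2 at chr12:131293176-131293249 had levels of 0.968 and 0.979 against 1.00 and 1.00, with an FDR of 1.00 from the authors and 24 reads in library 2 of the second set. Another event of that exon, with other neighbours, went the other way, at 1.00 and 1.00 against 1.00 and 0.936, a difference of 0.032 with overlapping sets.

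STX3, a syntaxin of the apical membrane in epithelial cells, had 1 event of intermediate level. The 100-nt exon at chr11:59554510-59554609 was included at 0.882 and 0.898 in the first set against 0.859 and 0.965 in the second, a difference of -0.022 with overlapping sets. The single matched transcript without it, STX3-206, is marked for nonsense-mediated decay. Leaving out library 2 of the second set turned the difference to 0.0313, and leaving out library 1 of that set made it -0.0754.

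STX4, which takes part in fusion at the plasma membrane and in the delivery of glucose transporters, was spliced nearly uniformly. Its deepest event, a 96-nt exon at chr16:31051044-31051139 with a mean of 895.0 reads, had 1 skipping read over the 4 libraries, and a second event of that exon differed by 0.006. A 71-nt exon at chr16:31046291-31046361 was the event outside STX16 that the quasi-binomial model placed under an unadjusted p of 0.05. It was included at 0.971 and 0.981 in the first set against 0.993 and 1.00 in the second, from 13 and 7 skipping reads against 3 and 0. Its unadjusted p was 0.0348 and its adjusted p 0.863, and the FDR in the authors' deposited table was 0.0638. In a second event of the same exon, with a mean of 241.0 reads, the levels were 0.988 and 0.992 against 1.00 and 0.969, a difference of 0.006 with overlapping sets. Conversely, a non-coding 63-nt exon of STX4 was hardly used, with 0, 2, 4 and 0 inclusion reads.

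STX5 acts in transport from the endoplasmic reticulum into and through the Golgi. Its deepest exon, 244 nt at chr11:62598491-62598734, was included at 0.990 and 0.991 in the first set against 1.00 and 0.968 in the second, so the sets overlapped. An exon of 163 nt in STX5, matched in GENCODE release 29 to transcripts marked for nonsense-mediated decay, had 2 inclusion reads in library 1 of the first set and 0 in the other 3 libraries. STX18 serves transport back to the endoplasmic reticulum. Its 59-nt exon at chr4:4426891-4426949 had levels of 0.960 and 1.00 against 0.969 and 0.95, a difference of 0.02 that fell to 6.93e-04 without library 2 of the first set.

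Among the endosomal syntaxins, STX12, of recycling endosomes, held the only event besides the STX16 exon with an FDR under 0.05. Its 44-nt exon at chr1:28136757-28136800 is coding, and its length is not a multiple of 3, so a transcript without it changes reading frame:
STX12 44-nt exon (STX12-201): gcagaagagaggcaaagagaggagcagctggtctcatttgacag

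The exon was skipped by 6 and 8 reads in the first set and by 0 and 0 in the second. The levels were 0.964 and 0.938 against 1.00 and 1.00, a difference of -0.049, which is below the 0.1 needed for a call. The FDR was 0.0326 in the authors' deposited table; the adjusted p of the quasi-binomial model was 0.863. The second set had fewer reads on it, 86 and 82 against 215 and 166, and 0 reads allow skipping shares of up to 3.49% and 3.66% of them, as counting error alone goes. No transcript that skips it was matched in GENCODE release 29.

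The 2 syntaxins of late endosomes, STX7 and STX8, were close to full inclusion. The 94-nt exon of STX7 at chr6:132793421-132793514 had levels of 0.976 and 0.976 in the first set against 1.00 and 1.00 in the second, from 3 and 3 skipping reads against 0 and 0. The sets did not overlap, and the FDR was 1.00 in the authors' deposited table. The 100-nt exon of STX8 at chr17:9471688-9471787 had 1.00 and 0.973 against 0.983 and 1.00, and the sets overlapped, as they did in its other event, which differed by 0.012.

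**Figure D3:**
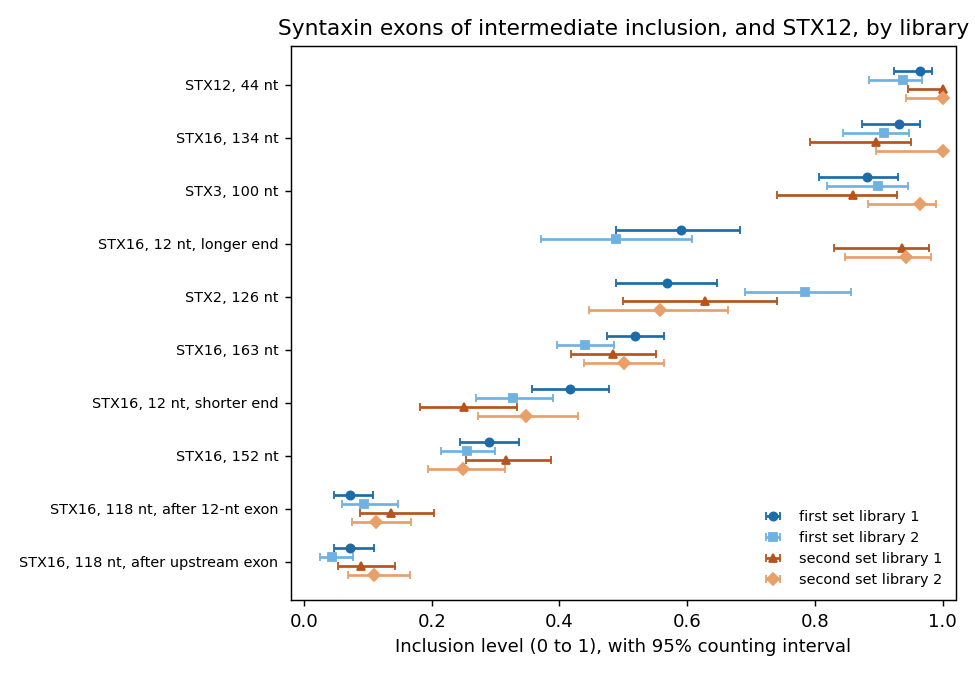
Inclusion level (x axis, 0 to 1) of the 9 syntaxin events of intermediate level and of the STX12 44-nt exon, 1 point per library with its 95% Wilson interval carried to the level (counting error only). Only the STX16 12-nt exon on the longer upstream end shows sets with intervals clear of each other.

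The number of junction reads on tested events differed between genes of the family. Expressed per 1000000 junction reads of the library, STX16 had 90.7 and 82.8 in the first set against 40.0 and 39.7 in the second. STX12 had 19.2 and 15.7 against 7.81 and 7.26, and STX2 had 33.4 and 31.5 against 18.3 and 15.3. These 3 genes were clearly higher in the first set, as was STX3 with 20.5 and 16.8 against 10.7 and 11.5. STX4 went the other way, with 78.5 and 71.6 against 86.4 and 86.3, and so did STX8, with 11.0 and 11.2 against 13.3 and 13.8. STX5 and STX18 overlapped between the sets, and STX7 was at 5.28 and 5.15 against 2.78 and 4.42.

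The sets did not overlap for 7 of the 9 genes, but neither did they for 74.2% of the 9987 genes with reads in every library. The log2 ratio of first to second set had a median of 0.37 over those genes, with quartiles at -0.01 and 0.88. Relative to that median, STX12 was at 0.84, STX16 at 0.75, STX2 at 0.58, STX3 at 0.38 and STX7 at 0.17. STX5 was at -0.31, STX18 at -0.36, STX4 at -0.57 and STX8 at -0.66. The family spanned percentiles 7.92, for STX8, to 84.4, for STX12, of all genes. These sums count a read once for each event it crosses and compare a gene only with itself. As shares of a library's junction reads, they measure neither cell number nor the amount of RNA per cell. In STX2, STX3, STX7, STX12 and STX16 the second set thus had fewer reads behind its inclusion levels as a whole, though not in every library of every event. The part of read number in those levels was not tested.

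**Figure D4:**
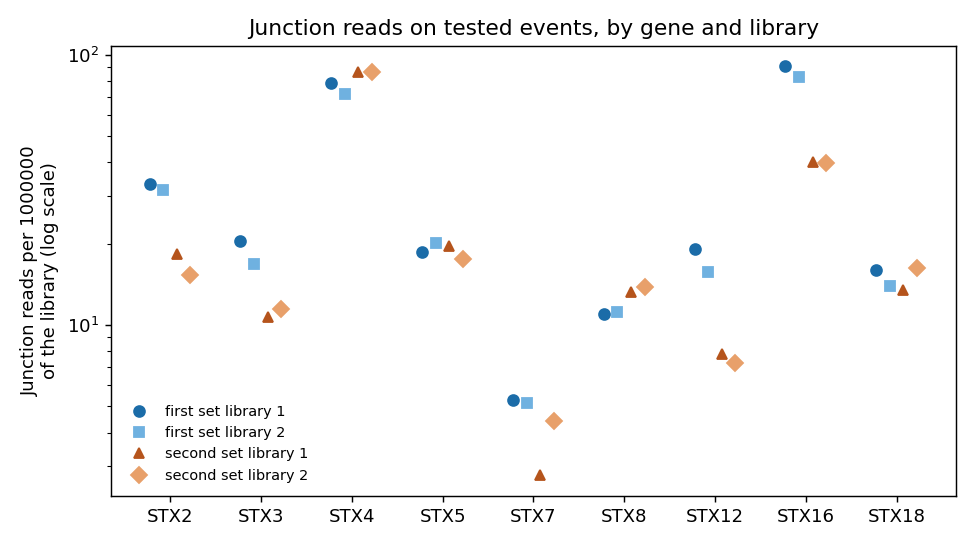
Junction reads per 1000000 of the library (log scale, y axis) on the tested events of each syntaxin gene (x axis), 1 point per library. STX2, STX3, STX7, STX12 and STX16 lie higher in both libraries of the first set, and STX4 and STX8 higher in both of the second.

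Syntaxins act with other SNAREs, with the Sec1/Munc18 proteins that clasp them, and with tethering complexes. A list of 62 such genes had tested events in 54 of them, 263 in all, of which 3 were called, 1 lower and 2 higher in the first set. That is 1.14% of the list's events, against 2.71% of all tested events. Intermediate levels were found in 13.3% of the list's events and 24.6% of all, and of those events 8.57% and 11.0% were called. BET1, a SNARE that pairs with STX5, had levels of 0.902 and 0.880 against 1.00 and 1.00 for a 34-nt exon, with 4 and 3 skipping reads against 0 and 0, and the difference of -0.109 was the same without library 2 of the second set. VPS53, a subunit of the tether through which endosomal carriers reach STX16, had 1.00 and 1.00 against 1.00 and 0.367, and its difference of 0.317 became 0 without that library. VPS11, a subunit of tethers on endosomes, had 1.00 and 0.931 against 0.943 and 0.762, and its difference of 0.113 became 0.0224. No partner event passed the quasi-binomial model or limma at an adjusted p under 0.05, with 6 and 12 at an unadjusted p under 0.05, or 2.28% and 4.56% of them against 3.23% and 4.87% of all tested events.

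The 12-nt STX16 exon was also set beside the tested exons of 3 to 27 nt, the size class called microexons. Of 507 such tested events 3.35% were called from the authors' table, and both the events and the calls include the STX16 event that the family was chosen on. By Euclidean distance over the inclusion levels of the 4 libraries, the patterns nearest to the shorter-end STX16 event among 429 exons were those of MLLT4, FIP1L1, CCNL2, TRAPPC9 and PICALM. MLLT4, at 21 nt, was the closest, at a distance of 0.103 and with levels of 0.419 and 0.319 in the first set against 0.352 and 0.334 in the second. Among 43095 exons of any length they were those of FAM122B, RAB28, C1orf109, KTN1 and LRR1, of which FAM122B, at a distance of 0.0453, was the closest. This likeness is over 4 libraries only and is a description.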

How the data were processed

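Poly(A) RNA of 293T cells was sequenced in 4 samples, 2 with the ASO and 2 without. Reads were trimmed with cutadapt, aligned with STAR and placed on hg19, tools and build named in the submitters' processing notes; the settings, the splicing program's version and the annotation are not given in the sources used here. The deposited table has the layout of rMATS for skipped exons counted on junction reads, per the file headers. It gives inclusion and skipping read counts as joined cells, the inclusion level as a fraction, and the difference in level, a score from the authors. The p-value and FDR of each event are the authors' as deposited. Each library's levels, recomputed from the reads, differed from those deposited by at most 5.00e-04.

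Events with a mean of at least 20 junction reads were tested, and calls need an FDR under 0.05 and an absolute difference of at least 0.1. A quasi-binomial model per event, with dispersion moderated by limma 3.58.1 in R 4.3.3 and not allowed below 1, and limma on log2 ratios with a pseudocount of 0.5 were fitted to all tested events with Benjamini-Hochberg adjustment. The dispersion prior was taken from events of intermediate level, a choice made after a first version did poorly when tested on simulated data. In the main fit the moderation gave every event the prior's value of 3.729, so the lower limit of 1 had no effect. In repeated simulations limma still found no changed event and the quasi-binomial model a minority of them under realistic scatter, while its false calls stayed within the adjustment. Intervals are 95% Wilson intervals and, like the limit of 3 counts for a count of 0, cover counting error only, since reads carry no molecular identifiers. Tables were handled in Python 3.11.15.

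Annotation and sequences came from GENCODE release 29 (GRCh38), matched by the spacing of exons for 36 of the family's 48 events; no position was converted between builds. Named exons are those of STX16 at 12 nt, those with an FDR under 0.05 and the deepest event of each gene, with intermediate levels preferred; the 118-nt, 152-nt, 74-nt, 71-nt and 63-nt exons and the STX5 163-nt exon were named after their values were seen. The genes and lists were chosen with earlier results of these data known. Alternatives were other read minimums, thresholds, pseudocounts and events per exon, and leaving out each library.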

Additional observations from a re-analysis of the deposited data

How the results depend on the processing

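The family's count of 1 call became 2 with a minimum of 10 reads or with no minimum, through the STX16 event of few reads. With 1 event per exon it became 0, since the deepest event of the 12-nt exon is the one on the shorter end. For authors' calls, here and below, leaving out a library changed only the differences, with the FDR of all 4 libraries kept. The family's count then stayed 1, which reflects only the size of the difference. The quasi-binomial count of 0 ranged from 0 to 1 over the fits that left out 1 library, with 1 without library 1 of the second set, and was 0 with limma at pseudocounts of 0.5 and 1, a test with too little power to read anything from that. The difference of -0.401 for the 12-nt exon was 0.073 on the shorter upstream end, -0.193 on the path under the read minimum and, in the comparison added after seeing the data, -0.0705 with both ends summed; leaving out libraries gave -0.452 to -0.350. The 3 calls of the partner list became 1 with a minimum of 50 reads, 5 with no minimum, 12 at a difference of 0.05, 1 at 0.2, 1 at an FDR under 0.01 and 1 when the sets may not overlap, and ranged from 1 to 3 over left-out libraries, with 1 without library 2 of the second set. The 1477 calls of the whole table became 719 at 50 reads, 2559 with no minimum, 2499 at a difference of 0.05, 525 at 0.2 and 748 at an FDR under 0.01, and ranged from 1002 to 1418 over left-out libraries. Of 55 alternatives for 11 other named differences, 49 moved them by less than the spread between libraries, among them 6 with the opposite sign, in STX2, STX3, STX5, STX8 and the 163-nt exon of STX16. The 6 that moved further, in STX4, STX5, STX7 and STX12, kept their sign. No paired analysis was possible because the table does not carry the labels' replicate numbers. Depth limits the skipping reads: at 3 per library on the longer end of STX16 in the second set, the upper counting limits of that path were 5.12% and 4.45%.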
